A study of Rattus norvegicus with 6 samples.

Results

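Zfp zinc finger genes were followed in RNA-seq libraries of rat mesenchymal stem cells, which give rise to osteoblasts, adipocytes and chondrocytes. The members were chosen by name and level: a gene symbol made of Zfp and a number, with any suffix, and a summed count of at least 300 over the 6 libraries. Of 30560 gene rows, 283 had such a symbol and 238 reached that sum, under 234 symbols, since Zfp51, Zfp84, Zfp748 and Zfp865 each had 2 rows. The summed count is a measured value, and the gene group was taken up with results of these data known, so the members' calls and medians below describe them and carry no test over the list.

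The comparison was between 2 kinds of culture, both wild type. Both first received doxorubicin, an anthracycline that breaks DNA and makes cells senescent, at 200 nM for 24 hours. In the SMNV group (3 libraries) the cells then had fresh medium with 100 µg/ml of a preparation called SMNV for 6 days, and in the Dox group (3 libraries) fresh medium with vehicle for the same 6 days. The labels do not spell out SMNV, and cells that never met doxorubicin were not analysed here, so every difference is between doxorubicin-treated cultures. The labels do not say whether the 3 libraries of a group came from separate cultures, so the p-values measure the spread between these libraries, which may be technical.

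Most Zfp proteins carry C2H2 zinc fingers, short loops held by a zinc ion that each read a few bases of DNA, and many fingers in a row give a protein its own target sequence. The largest subfamily carries a KRAB domain (Krüppel-associated box) at the other end of the protein, which binds the corepressor TRIM28. TRIM28 in turn brings the histone methyltransferase SETDB1, HP1 proteins and the NuRD deacetylase complex, and the main known task of this machinery is to keep transposable elements and imprinted loci silent. KRAB zinc finger genes lie in clusters of related neighbours that arose by duplication. The Zfp symbol also covers proteins of other kinds: CCCH proteins that bind mRNA, ribosome assembly factors and ubiquitin ligases.

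Libraries held 20404898 to 21506967 estimated counts in SMNV and 18640909 to 20051586 in Dox, with counts in 15102 to 15347 genes. In log2 CPM (counts scaled to a common library size with TMM factors), libraries of the same group had Pearson correlations of 0.989 to 0.992, and libraries of different groups 0.947 to 0.969. The 8 stromal markers (Thy1, Nt5e, Eng, Cd44, Itgb1, Pdgfrb, Vim and Col1a1) summed to 44500 to 54500 CPM in SMNV and 26100 to 30200 CPM in Dox, although of these 8 genes 4 were called higher, 2 lower and 2 neither. Haematopoietic markers summed to at most 0.587 CPM in SMNV and 0.394 CPM in Dox, with Ptprc, Itgam and Cd34 at 0 in all 6 libraries, and endothelial markers to at most 0.101 CPM in SMNV and 0.0975 CPM in Dox, with Cdh5 and Kdr at 0. Smooth muscle markers Myh11 and Cnn1 summed to 19.7 to 24.7 CPM in SMNV and 19.7 to 24.1 CPM in Dox. The 10 most abundant genes took 18.8 ± 0.811% of the counts in SMNV and 14.8 ± 0.396% in Dox (SD, n = 3 each), and a row annotated as ribosomal RNA had 31.3, 43.9 and 124 CPM in SMNV against 5.93, 1.25 and 2.57 CPM in Dox. These library measures move with the group, and their part in the results below was not tested.

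The sequences just upstream of 4 members, chosen for how the genes changed, are given for context. They belong to the largest rise (Zfp64), the largest fall among the named genes that has an entry in the promoter table (Zfp347), and 2 KRAB genes from the same stretch of chromosome 4 that went opposite ways (Zfp746 higher, Zfp862 lower). Each runs from 250 bases before to 50 bases after the annotated start, 5′ to 3′, in the RefSeq assembly GRCr8, with every CG dinucleotide in capitals.
Zfp64 promoter, chr3:178114508-178114807, minus strand: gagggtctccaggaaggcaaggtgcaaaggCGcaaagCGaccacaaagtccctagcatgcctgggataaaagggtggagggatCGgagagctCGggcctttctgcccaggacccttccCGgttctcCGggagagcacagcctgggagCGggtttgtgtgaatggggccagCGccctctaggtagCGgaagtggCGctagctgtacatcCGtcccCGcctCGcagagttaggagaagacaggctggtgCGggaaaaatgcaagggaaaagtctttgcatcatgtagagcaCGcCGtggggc
Zfp347 promoter, chr7:8117749-8118048, plus strand: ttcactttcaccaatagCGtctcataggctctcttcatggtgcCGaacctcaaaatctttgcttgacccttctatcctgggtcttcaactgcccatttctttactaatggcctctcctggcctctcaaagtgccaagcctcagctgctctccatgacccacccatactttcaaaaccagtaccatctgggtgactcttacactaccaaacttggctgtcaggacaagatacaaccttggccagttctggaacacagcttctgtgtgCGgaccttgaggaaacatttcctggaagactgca
Zfp746 promoter, chr4:78409783-78410082, minus strand: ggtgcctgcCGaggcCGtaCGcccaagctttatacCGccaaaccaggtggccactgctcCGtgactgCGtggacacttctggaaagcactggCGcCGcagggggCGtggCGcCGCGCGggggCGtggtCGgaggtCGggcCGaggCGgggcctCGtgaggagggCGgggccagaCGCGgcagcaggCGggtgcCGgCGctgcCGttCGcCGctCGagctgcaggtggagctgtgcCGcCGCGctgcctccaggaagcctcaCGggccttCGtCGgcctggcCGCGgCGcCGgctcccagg
Zfp862 promoter, chr4:78783793-78784092, plus strand: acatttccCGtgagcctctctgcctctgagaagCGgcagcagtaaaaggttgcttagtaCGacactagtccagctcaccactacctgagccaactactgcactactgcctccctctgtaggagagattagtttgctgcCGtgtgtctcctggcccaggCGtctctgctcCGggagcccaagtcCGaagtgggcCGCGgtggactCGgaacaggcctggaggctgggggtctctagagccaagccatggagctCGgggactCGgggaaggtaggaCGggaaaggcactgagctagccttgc
The windows hold 16 CG dinucleotides for Zfp64, 3 for Zfp347, 39 for Zfp746 and 13 for Zfp862, with a G and C content of 60.3% for Zfp64, 48.7% for Zfp347, 75% for Zfp746 and 60% for Zfp862. Of 27456 RefSeq windows of the same length, 94.8% hold at least 1 CG, with a median of 7 and quartiles of 3 and 20. The 2 neighbours on chromosome 4 therefore differ 39 to 13 in this count, and Zfp347 sits at the lower quartile. A promoter entry was matched for 181 of the 238 members (76.1%) and for 69.7% of those with a KRAB domain, which is under the 80% needed, so a comparison of promoter composition over the family is void.

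Zfp genes with a KRAB domain were mostly lower in SMNV than in Dox, and the Zfp genes without that domain went in both directions and held all rises of at least 2-fold. Over all 238 members, 53 rose (22.3%), 101 fell (42.4%) and 84 did not pass the test (edgeR quasi-likelihood test, two-sided, Benjamini-Hochberg adjusted over 12614 tested genes, threshold 0.05). Of all tested genes 60.4% were called, 30.5% higher and 29.9% lower, so the share of members called (64.7%) is close to the background and their split is not. The median log2 fold change, SMNV over Dox, was -0.24 over the members and -0.01 over all tested genes. The members ran from -0.91 for Zfp458, named here after its value was seen, to 1.80 for Zfp64. Groups did not overlap in CPM for 171 members, and for 66.9% of all tested genes. In bulk libraries fewer cells that express a gene and less RNA per cell cannot be told apart, and each value here is a share of the library.

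Large changes were no more common among the members than among all tested genes, where rises past these folds also outnumbered falls. At least 1.5-fold higher were 33 members (13.9%, background 18.5%) and at least 1.5-fold lower were 13 (5.46%, background 6.25%). At least 2-fold higher were 15 members (6.3%, background 8.67%), and none was at least 2-fold lower by edgeR (0 also at an unadjusted p of 0.05, by DESeq2 and by limma), against 1.52% of all tested genes.

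Of the 238 members, 122 carried a KRAB term in the Pfam column of the authors' table. In this class 10 members rose (8.2%), 65 fell (53.3%) and 47 did not pass. The median log2 difference was -0.33, between quartiles of -0.46 and -0.17. Of the 122, 7 were at least 1.5-fold higher, a share below the background of 18.5%. At least 1.5-fold lower were 12, a share above the background of 6.25%. The other 116 members counted 43 rises (37.1%), 36 falls (31%) and 37 that did not pass, with a median of 0.06 and quartiles of -0.30 and 0.45. All 15 members at least 2-fold higher were among these 116, a share above the background of 8.67%. The lone member without the KRAB term that was at least 1.5-fold lower was Zfp281. A row without the term may still encode the domain, since the annotation can be incomplete.

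The KRAB class was lower in each SMNV library than in each Dox library. KRAB members took 0.193%, 0.194% and 0.186% of the counts in the 3 SMNV libraries, against 0.256%, 0.238% and 0.246% in the 3 Dox libraries. Their summed TPM (a level corrected for length and scaled to the same total in each library) was 943 ± 36 in SMNV and 1230 ± 47.7 in Dox (SD, n = 3 each). Without TMM scaling, the summed members without KRAB were also lower in each SMNV library than in each Dox library, by a smaller margin. They took 0.4073%, 0.3996% and 0.3991% of the counts in SMNV (0.402 ± 0.0046%) against 0.4425%, 0.4236% and 0.4328% in Dox (0.433 ± 0.00945%). Their summed TPM was 1980 ± 83.4 in SMNV and 2120 ± 42.4 in Dox, also without overlap. Such sums weigh abundant members most, and these shares and TPM sums were not scaled by the TMM factors. The factors were 0.9704, 0.9925 and 0.9726 in SMNV and 1.023, 1.02 and 1.023 in Dox. In scaled CPM the median member without KRAB was higher in SMNV, at 25.5 ± 1.09 against 18.8 ± 0.672 in Dox (SD, n = 3 each). The median log2 fold change of the members without KRAB was 0.06. The median KRAB member stood 0.138, 0.123 and 0.187 log2 units below its own mean over the 6 libraries in SMNV libraries 1, 2 and 3, and 0.223, 0.109 and 0.155 above it in Dox libraries 1, 2 and 3.

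**Figure D1:**
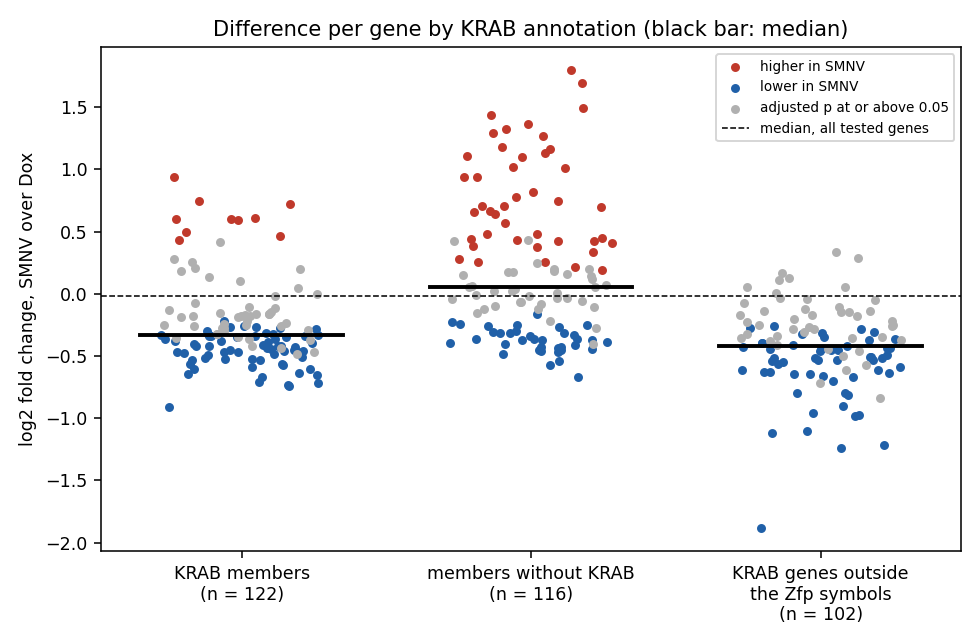
Log2 fold change, SMNV over Dox (vertical axis), of each tested gene in 3 sets: the 122 KRAB members, the 116 members without KRAB and the 102 KRAB genes outside the Zfp symbols; colours mark genes called higher, called lower or not called, black bars are medians and the dashed line is the median of all tested genes. The KRAB medians lie at -0.33 and -0.42, and the rises above 1 belong to members without KRAB.

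KRAB genes that do not carry a Zfp symbol gave values that the choice of members did not use, though from the same 6 libraries. Their rows may share reads with related KRAB members, so they are not independent of them. Of 102 such tested genes, 69 of them without a usable symbol, none rose and 56 fell (54.9%, background 29.9%), with a median log2 fold change of -0.42. None was higher at an unadjusted p of 0.05 in edgeR either, nor by DESeq2, limma voom or limma on TPM. Among the named ones, Rbak, a KRAB protein that binds RB1 in human cells, had 6.31, 7.08 and 7.16 CPM in SMNV against 9.46, 9.52 and 9.22 CPM in Dox (log2 fold change -0.46 ± 0.13 (SE), adjusted p = 0.00666, edgeR). Zkscan3, described as a repressor of autophagy genes, had 36.27, 37.68 and 35.04 CPM in SMNV against 51.15, 42.3 and 41.59 CPM in Dox (-0.31 ± 0.09, adjusted p = 0.00837, edgeR). Both were named after their values were seen. Counts with decimals, whose source is not given, occurred in 62.7% of these 102 rows, in 36.1% of the KRAB members and in 26.4% of all tested rows. The 78 KRAB members with whole counts throughout counted 8 rises and 41 falls, with a median of -0.31. The part of shared reads in these falls was not tested.

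Members whose proteins carry a SCAN domain, a protein interaction domain found in some zinc finger proteins, were few. Over all tested genes 30.5% were higher and 29.9% lower, and sets this small cannot be set apart from that background. Of 5 with SCAN and no KRAB, 3 fell and Zfp444 rose, with 6.46, 4.87 and 8.32 CPM in SMNV against 2.78, 3.63 and 3.25 CPM in Dox (1.02 ± 0.21, adjusted p = 0.000605, edgeR). Of 10 with both domains, 4 fell and 2 rose. Those 2 were Zfp213, with 4.26, 4.12 and 5.9 CPM in SMNV against 2.83, 2.26 and 2.32 CPM in Dox, and Zfp496, with 54.77, 50.48 and 51.97 CPM in SMNV against 32.42, 38.77 and 32.82 CPM in Dox. In all of these risers each SMNV library was above each Dox library. The names were taken after the values were seen.

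The steepest rises were in genes without the KRAB term. Zfp64, whose human counterpart drives the MLL gene in leukaemia cells, had 31.18, 27.51 and 34.48 CPM in SMNV against 7.22, 10 and 9.61 CPM in Dox. Every SMNV library was far above every Dox library. The log2 fold change was 1.80 ± 0.13 (SE), with an adjusted p of 3e-08 in edgeR. Zfp414 had 23.35, 21.75 and 23.69 CPM in SMNV against 6.58, 7.1 and 7.54 CPM in Dox (1.70 ± 0.11, adjusted p = 1.13e-08, edgeR). Zfp668, linked to DNA damage repair in human cells, had 14.49, 13.73 and 14.57 CPM in SMNV against 3.32, 5.95 and 5.96 CPM in Dox (1.49 ± 0.18). Its SMNV libraries lay close together and Dox library 1 was the lowest of the 6. Zfp628, needed for sperm formation in mice, had 9.74, 9.61 and 12.35 CPM in SMNV against 3.32, 4.16 and 4.24 CPM in Dox (1.44 ± 0.16).

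Zfp385a, a p53 partner that steers it toward cell cycle arrest genes and that also binds RNA, had 28.98, 26.01 and 33.68 CPM in SMNV against 10.04, 11.57 and 12.86 CPM in Dox. The groups were well apart, at 1.36 ± 0.12 on the log2 scale (adjusted p = 2.5e-07, edgeR). Zfp395, which in human cells responds to hypoxia, had 26.23, 20.2 and 23.19 CPM in SMNV against 8.09, 9.89 and 10.4 CPM in Dox (1.29 ± 0.13). Zfp523, the counterpart of human ZNF76 and a relative of the promoter factor ZNF143, had 21.24, 18.19 and 25.81 CPM in SMNV against 8.34, 11.52 and 10.4 CPM in Dox (1.11 ± 0.14). Zfp358 and Zfp362 rose by 1.27 ± 0.13 and 1.17 ± 0.14 on the log2 scale, also without overlap. Adjusted p-values of the 10 largest rises that the naming rule took were 1.13e-08 to 9.95e-06.

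The 10 largest named falls were smaller, and 9 of them were KRAB genes. Zfp347 had 60.25, 53.67 and 50.01 CPM in SMNV against 90.93, 87.12 and 94.66 CPM in Dox (-0.73 ± 0.08, SE, with an adjusted p of 1.27e-06 in edgeR). Zfp729a had 13.66, 13.31 and 12.45 CPM in SMNV against 21.84, 20.36 and 23.8 CPM in Dox (-0.74 ± 0.10, adjusted p = 1.66e-05, edgeR). Zfp248 had 4.55, 4.92 and 5.04 CPM in SMNV against 7.8, 8.52 and 7.49 CPM in Dox (-0.71 ± 0.14). In all 3 genes the groups were tight and did not overlap. Zfp875, Zfp52, Zfp157, Zfp958l1, Zfp712 and Zfp799 followed, at -0.71, -0.67, -0.65, -0.64, -0.64 and -0.60 on the log2 scale. The exception, Zfp281, a C2H2 factor known from pluripotency and epithelial-mesenchymal transition, had 60.25, 61.17 and 58.73 CPM in SMNV against 103.56, 89.12 and 94.37 CPM in Dox (-0.67 ± 0.07, adjusted p = 1.34e-06, edgeR). All 10 named rises and all 10 named falls passed the test in each of the 14 alternative fits.

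**Figure D2:**
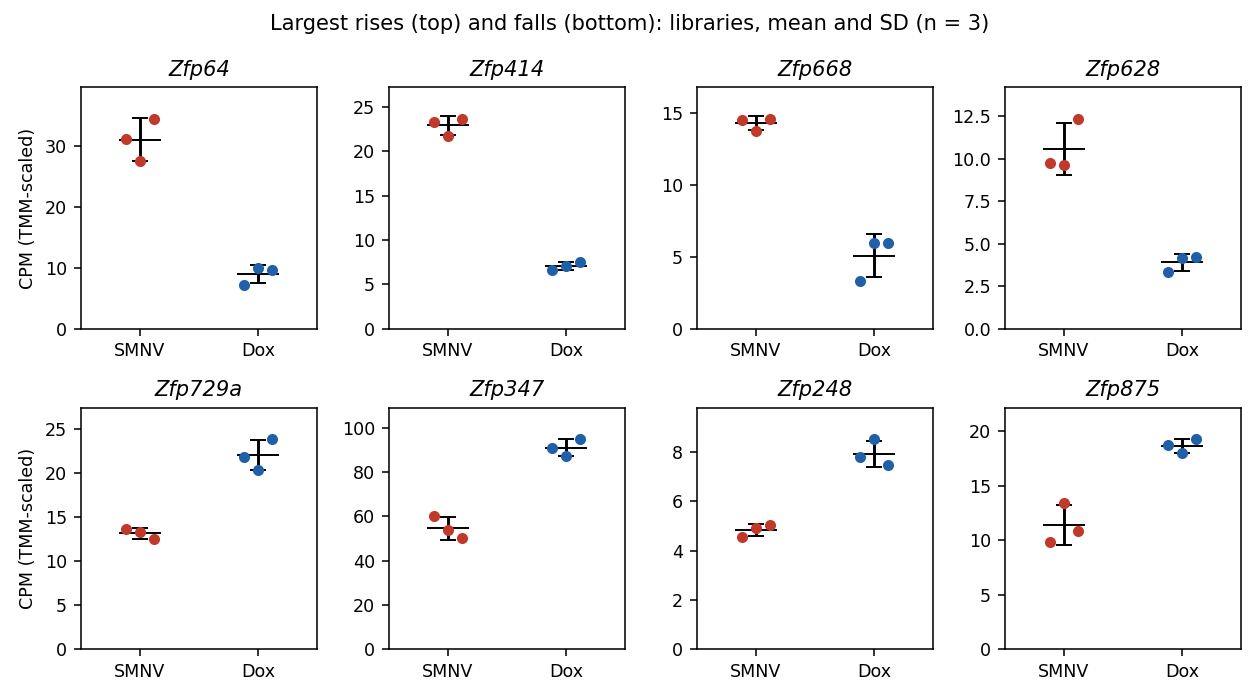
CPM, scaled by TMM factors, in each of the 3 SMNV and 3 Dox libraries (points) with the mean and SD (bars), for the 4 largest rises (top row) and the 4 largest falls (bottom row) of the naming rule. The groups do not overlap in any of the 8 panels; Zfp64 lies at 27.51 to 34.48 in SMNV and 7.22 to 10 in Dox.

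Close to the limit of the rule, the 3 members just inside the summed count of 300 were Zfp772 (312 counts), Zfp879 (332) and Zfp688 (333), and the 3 rows just outside were Zfp771 (272), Zfp697 (272) and Zfp141 (271). Their log2 fold changes were -0.19, -0.30 and 0.75 inside and 0.61, -0.32 and -0.79 outside, in the same order. Below the limit lay 45 rows, 16 of them with no count at all and 13 of them tested. Zfp423, a regulator of preadipocytes, was among the rows below the limit.

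Rising KRAB genes lay mostly in 2 stretches of neighbours. When members were placed in the order of protein-coding genes of GRCr8, 222 could be placed. There were 9 runs of at least 4 members with at most 5 genes between neighbours, and they held 50 of the placed members. Of these 50, 10 rose and 18 fell, and of the 172 placed members in no run 42 rose and 72 fell. Over all tested genes 30.5% were higher and 29.9% lower, so rises of members were not concentrated in runs. The runs were then divided by whether any member was called higher in edgeR, so the contrast between them follows from the calls. In the 7 runs with no such call, 17 of 36 members fell and 34 had a log2 fold change below 0. There, 0 were higher at an unadjusted p of 0.05 in edgeR, by DESeq2 or by limma. Those fits use the same counts that divided the runs, so this 0 is no added support for the split. The medians of these runs went from -0.11 to -0.50. In the run from Zfp786 to Zfp775, on chromosome 4, 7 of 10 members rose and 1 fell, with a median of 0.46. In the run from Zfp764l1 to Zfp689, all 4 with KRAB, 3 rose and none fell, with a median of 0.66. The KRAB members of these 2 runs, 11 in all, had 7 of the 10 rises of their class and a median of 0.50. The other 111 KRAB members, some of which could not be placed, had a median of -0.34, with 64 falls and 3 rises. Those 3 were Zfp213 and Zfp496, given above, and Zfp316 (0.47 ± 0.16, adjusted p = 0.0206, edgeR), whose call was lost on TPM and without SMNV library 1 or Dox library 1. Genes of a run are related copies and neighbours, so they are not independent. The 2 runs were noticed in these data and set apart by their calls. Their medians and counts describe that split, and no test of them was made.

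Within the Zfp786 to Zfp775 run, Zfp746, also called PARIS, a repressor of the PGC-1alpha gene and a target of parkin in neurons, had 21.83, 20.67 and 24.05 CPM in SMNV against 13.99, 15.2 and 14.39 CPM in Dox (log2 fold change 0.61 ± 0.10, adjusted p = 8.67e-05, edgeR). Its neighbour Zfp212 had 22.22, 19.12 and 19.31 CPM in SMNV against 11.26, 15.15 and 13.55 CPM in Dox (0.60 ± 0.12). Zfp282 and Zfp777 rose by 0.44 ± 0.09 and 0.50 ± 0.11 on the log2 scale, and Zfp956, Zfp775 and Zfp467, which lack the KRAB term, by 0.57 ± 0.17, 0.48 ± 0.10 and 0.43 ± 0.12. Zfp862 fell (-0.46 ± 0.09, adjusted p = 0.000608, edgeR), and Zfp786 and Zfp398 did not pass. In the Zfp764l1 to Zfp689 run the risers were Zfp764l1, Zfp688 and Zfp689, at 0.72 ± 0.21, 0.75 ± 0.25 and 0.60 ± 0.11. The call of Zfp688 was lost when SMNV library 1 or 3 or Dox library 1 or 2 was left out, with adjusted p-values of 0.0549, 0.0666, 0.0796 and 0.0514.

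**Figure D3:**
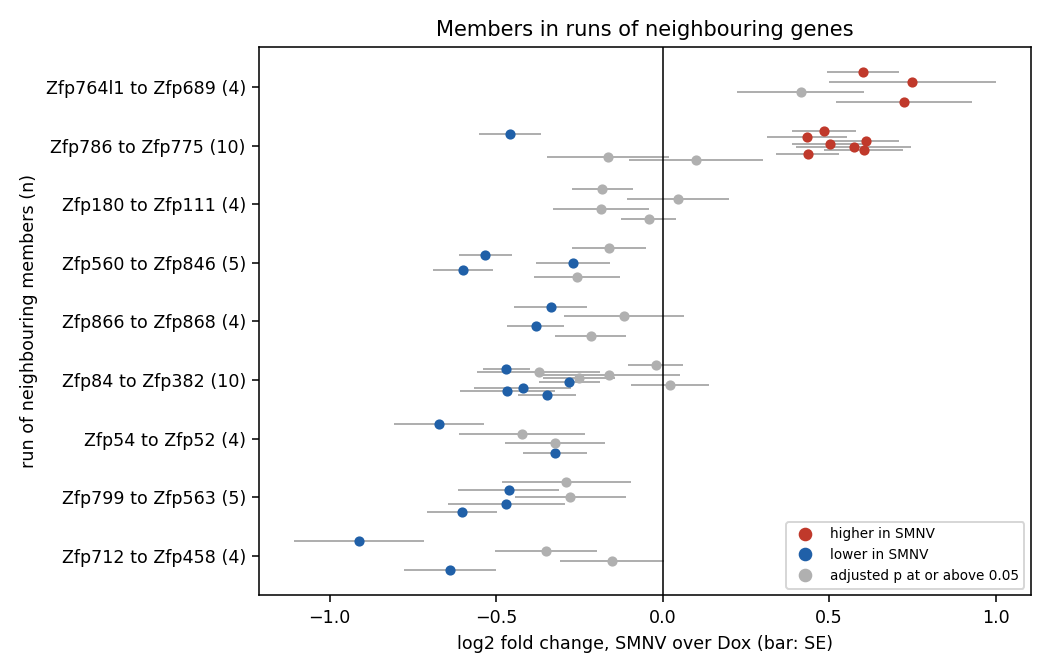
Log2 fold change, SMNV over Dox, with its SE (horizontal axis), of members in the 9 runs of neighbouring genes (rows, with the number of members), sorted by run median; colours mark genes called higher, called lower or not called. The 10 rises among these 50 members lie in the 2 runs at the top, Zfp764l1 to Zfp689 and Zfp786 to Zfp775, which were set apart by these calls. Of the 172 placed members in no run, 42 rose.

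Members known for work on RNA, ribosomes or ubiquitin changed in both directions: of 11 on this list 4 rose (36.4%, background 30.5%) and 5 fell (45.5%, background 29.9%), a number too small to set apart from that background. Zfp598, a ubiquitin ligase that senses collided ribosomes, had 34.8, 34.73 and 38.62 CPM in SMNV against 14.72, 19.52 and 19.42 CPM in Dox (1.01 ± 0.11, adjusted p = 1.85e-06, edgeR). Zfp593, an assembly factor of the large ribosomal subunit, had 4.99, 5.02 and 8.07 CPM in SMNV against 1.85, 3.95 and 2.22 CPM in Dox (1.18 ± 0.27, adjusted p = 0.00145, edgeR). Zfp622, a later factor of the same assembly line, had 198.96, 185.28 and 198.52 CPM in SMNV against 270.6, 232.49 and 246.74 CPM in Dox (-0.36 ± 0.07, adjusted p = 0.000302, edgeR). These ribosome assembly factors thus changed in opposite directions, each without overlap between the groups. Zfp346, which binds double-stranded RNA, rose by 0.34 ± 0.10 on the log2 scale, a call lost on TPM and without Dox library 3, and Zfp385a is given above.

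The other falls of this list were Zfp106 (-0.41 ± 0.08), an RNA-binding protein, Zfp638 (-0.37 ± 0.07), which silences unintegrated retroviral DNA together with the HUSH complex, Zfp91 (-0.36 ± 0.07), a ubiquitin ligase, and Zfp326 (-0.25 ± 0.08), which couples transcription to splicing. Zfp326 lost its call without SMNV library 2, at an adjusted p of 0.0513. Zfp207, which helps BUB3 act at kinetochores, had 85.26, 99.69 and 93.16 CPM in SMNV against 95.76, 92.65 and 95.9 CPM in Dox, and the groups overlapped (-0.03 ± 0.07). Zfp830 did not pass either, at -0.02 ± 0.12.

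On the length-corrected TPM scale, Zfp622 and Zfp207 were the most abundant members. Zfp622 had 134.31, 116.54 and 128.67 TPM in SMNV against 187.35, 162.29 and 169.34 TPM in Dox, and Zfp207 had 110.85, 122.73 and 115.28 TPM in SMNV against 130.47, 126.5 and 131.08 TPM in Dox. The 2 genes overlapped in level in SMNV and did not in Dox. Zfp36l1 and Zfp36l2 came next, with means over all 6 libraries of 79.88 and 78 TPM and overlapping libraries, and then Zfp260 with 66.65 TPM. The median KRAB member had 7.13 TPM and the median member without KRAB 11.4 TPM, against 17.2 TPM over all tested genes. Zfp260, a C2H2 factor studied in rat heart, fell, with 134.01, 126.36 and 121.69 CPM in SMNV against 193.03, 167.78 and 168.24 CPM in Dox (-0.47 ± 0.07, adjusted p = 4.27e-05, edgeR).

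The 3 CCCH proteins bind AU-rich elements in mRNA and speed its decay, and their changes were small. Zfp36, also called tristetraprolin, had 17.38, 16.64 and 19.76 CPM in SMNV against 14.04, 14.57 and 16.26 CPM in Dox (0.26 ± 0.11, adjusted p = 0.0474, edgeR). Zfp36l1 had 123.88, 109.3 and 137.02 CPM in SMNV against 107.7, 107.01 and 104.08 CPM in Dox (0.22 ± 0.08, adjusted p = 0.0236, edgeR). Zfp36l2 had 143.56, 133.21 and 144.53 CPM in SMNV against 160.41, 146.47 and 164.64 CPM in Dox (-0.16 ± 0.07, adjusted p = 0.0439, edgeR). Groups were barely apart in each, and each call was lost in several alternative fits: the adjusted p reached 0.257 for Zfp36 and 0.384 for Zfp36l1 on TPM, and 0.234 for Zfp36l2 without SMNV library 2.

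Of 9 members listed for roles in mesenchymal cells and their fate, 5 rose and 2 fell, against 30.5% and 29.9% of all tested genes. The list also holds Zfp703 and its relative Zfp503, best known from other tissues. Zfp516, which promotes brown fat genes, had 67.05, 53.34 and 66.54 CPM in SMNV against 35.88, 39.88 and 38.88 CPM in Dox (0.71 ± 0.09, adjusted p = 1.18e-05, edgeR). Zfp703, a corepressor-recruiting factor of breast epithelium, had 27.02, 26.48 and 31.26 CPM in SMNV against 15.85, 17.84 and 15.77 CPM in Dox (0.78 ± 0.10, adjusted p = 9.52e-06, edgeR). Zfp521, which restrains fat formation, had 107.04, 104.47 and 106.62 CPM in SMNV against 86.15, 91.75 and 88.55 CPM in Dox (0.26 ± 0.06, adjusted p = 0.002, edgeR). In these 3 genes each SMNV library was above each Dox library. Zfp467, which favours fat over bone formation in mouse marrow cells, rose by 0.43 ± 0.12 on the log2 scale. The rises of Zfp521 and Zfp467 were lost on TPM, at adjusted p-values up to 0.0819 and 0.0601.

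The fifth riser, Zfp503, a relative of Zfp703, overlapped between the groups, with 9.84, 7.26 and 11.04 CPM in SMNV against 7.95, 6.31 and 6.9 CPM in Dox (0.41 ± 0.16, adjusted p = 0.0422, edgeR), and its call was lost in 7 alternative fits. Zfp148, also called ZBP-89, a GC-box-binding factor, had 55.16, 52.78 and 54.39 CPM in SMNV against 88.1, 66.18 and 66.67 CPM in Dox (-0.45 ± 0.10, adjusted p = 0.00104, edgeR). The second fall was Zfp281, given above. Zfp384, which regulates bone matrix genes, was at 0.06 ± 0.07 and did not pass. Zfp217 had 22.32, 21.09 and 20.47 CPM in SMNV against 15.16, 25.67 and 15.87 CPM in Dox, where Dox library 2 was the highest of the 6. Its log2 fold change of 0.18 ± 0.16 did not pass, and without Dox library 2 it was 0.46 with an adjusted p of 0.00214 (edgeR).

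The KRAB proteins that protect imprinted loci are ZFP57 and ZFP445. Zfp445 had 62.8, 57.32 and 60.09 CPM in SMNV against 85.91, 78.6 and 81.8 CPM in Dox, with no overlap (-0.45 ± 0.07, adjusted p = 4.53e-05, edgeR). Zfp57 had 38.91, 40.4 and 41.84 CPM in SMNV against 49.88, 42.35 and 41.89 CPM in Dox. The SMNV libraries were all lower, by a narrow margin, and the difference did not pass (-0.15 ± 0.09, adjusted p = 0.152, edgeR); on TPM it did, at an adjusted p of 0.0395. Zfp809, on the same list, was not analysed here.

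The machinery that KRAB proteins recruit moved unevenly. Of 41 genes on the list, 38 rows were tested: 7 were called higher, 19 lower and 12 neither. Their median log2 fold change was -0.16. Of them 50% fell against a background of 29.9%, and 18.4% rose against a background of 30.5%. The rows of the list are long, with a median of 4012 bases against 2673 over all tested genes. Among tested genes of 3986 bases and more, 1302 of 3154 were lower, with a median of -0.13. The part of row length in the falls of this list was not tested. Trim28 itself had 190.2, 193.29 and 194.39 CPM in SMNV against 184.15, 186.61 and 177.65 CPM in Dox, a difference that did not pass (0.08 ± 0.06, adjusted p = 0.275, edgeR). Setdb1, the H3 lysine methyltransferase, did not pass either (-0.08 ± 0.07), though on TPM it was called lower, at an adjusted p of 0.0258. Cbx5, an HP1 protein, fell (-0.27 ± 0.07, adjusted p = 0.00327, edgeR), a call lost on TPM. The other HP1 genes differed from it: Cbx1 rose (0.60 ± 0.08, adjusted p = 1.39e-05, edgeR) and Cbx3 did not pass (0.05 ± 0.06).

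Subunits of NuRD were among the largest rises of the list. Mbd3 had 76.16, 67.54 and 83.58 CPM in SMNV against 23.16, 28.99 and 22.42 CPM in Dox (1.61 ± 0.10, adjusted p = 1.33e-08, edgeR), and Gatad2a and Mta1 rose by 0.997 ± 0.09 and 0.91 ± 0.10 on the log2 scale. Other subunits fell: Hdac1 (-0.38 ± 0.07), Gatad2b (-0.33 ± 0.09), Rbbp4 (-0.29 ± 0.07) and Mbd2 (-0.22 ± 0.07). Chd4 (-0.12 ± 0.06), Chd3, Hdac2, Mta2, Mta3 and Rbbp7 did not pass. The DNA methylation maintenance genes Uhrf1 and Dnmt1 rose by 0.76 ± 0.09 and 0.33 ± 0.07.

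The 3 subunits of HUSH, a complex that silences retroelements, all fell. Tasor had 39.25, 37.26 and 35.04 CPM in SMNV against 58.26, 50.72 and 57.11 CPM in Dox (-0.57 ± 0.08, adjusted p = 2.65e-05, edgeR). Pphln1 had 44.1, 43.45 and 37.41 CPM in SMNV against 65.53, 57.77 and 62.78 CPM in Dox (-0.57 ± 0.08, adjusted p = 3.06e-05, edgeR). Mphosph8 had 169.64, 159.17 and 158.55 CPM in SMNV against 239.25, 221.07 and 235.6 CPM in Dox (-0.51 ± 0.06, adjusted p = 5.41e-06, edgeR). The groups were apart in each. Trim33, a relative of TRIM28, fell as well (-0.55 ± 0.08, adjusted p = 2.26e-05, edgeR). The histone H3.3 chaperone pair split, with Atrx lower (-0.52 ± 0.09) and Daxx higher (0.57 ± 0.12). Cbx1, Cbx3, Uhrf1, Dnmt1, Mphosph8, Atrx and Daxx were named after their values were seen. So were the NuRD genes Hdac1, Hdac2, Gatad2b, Rbbp4, Rbbp7, Mbd2, Mta2, Mta3, Chd3 and Chd4.

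**Figure D4:**
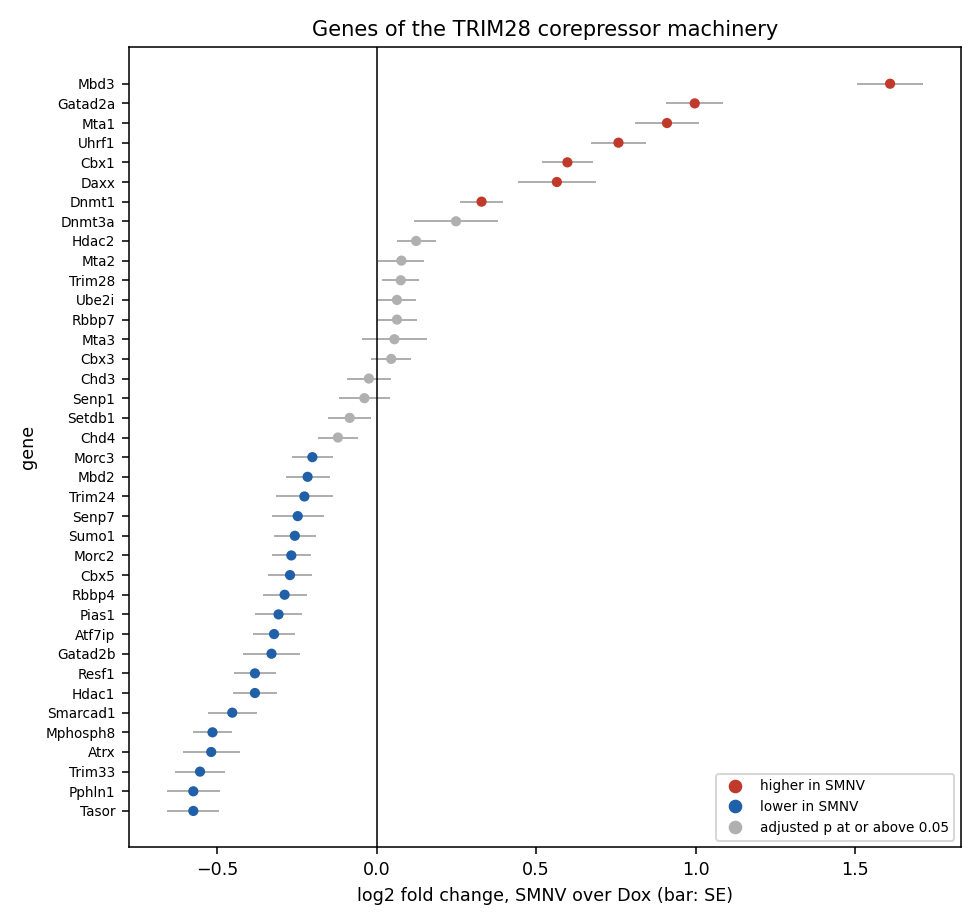
Log2 fold change, SMNV over Dox, with its SE (horizontal axis), of the 38 tested rows of the TRIM28 corepressor list (rows); colours mark genes called higher, called lower or not called. Mbd3, Gatad2a and Mta1 stand highest and Tasor, Pphln1 and Trim33 lowest, with Trim28 near 0 at 0.08.

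Row length moved with the differences and was examined beside the KRAB split. Across all 12614 tested genes the Spearman correlation of log2 fold change with row length was -0.17, across the KRAB members -0.20 and across the members without KRAB -0.31 (across genes, which share the 6 libraries). KRAB members of 1755 to 2672 bases had a median log2 fold change of -0.32, those of 2673 to 3984 bases -0.33 and those of 3986 bases and more -0.42, where all tested genes of the same lengths had 0.02, -0.05 and -0.13. Members without KRAB had medians of 0.43, -0.01 and -0.06 in the same 3 ranges. The shortest range held 2 KRAB members and 4 without KRAB, too few to read. In these 3 ranges the median of the KRAB members was below that of all tested genes, and that of the members without KRAB above it. The ranges are wide, the last reaching 107207 bases, so lengths may differ between the sets within a range. The part of row length in the KRAB split was not tested.

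**Figure D5:**
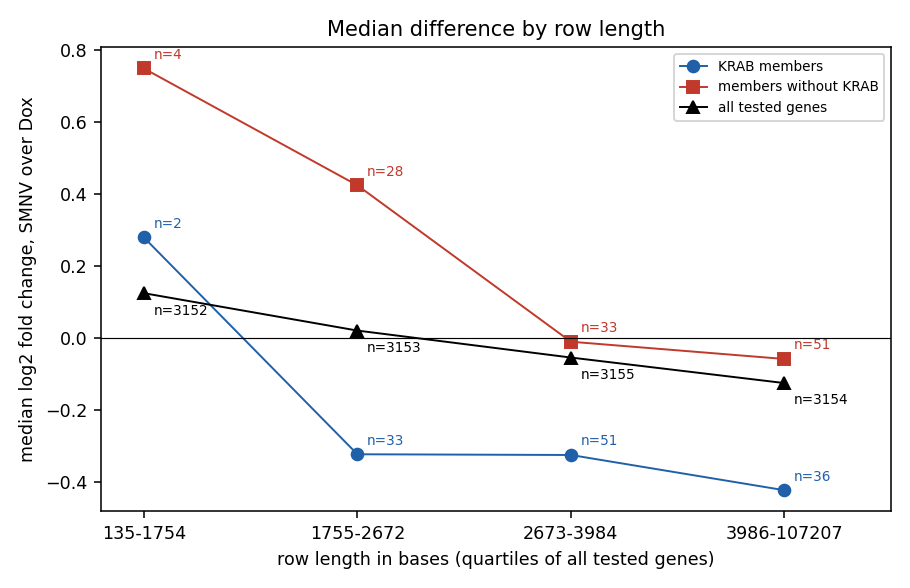
Median log2 fold change, SMNV over Dox (vertical axis), by quartile of row length in bases over all tested genes (horizontal axis), for KRAB members, members without KRAB and all tested genes; labels give the number of genes. KRAB members lie below the line of all tested genes in the 3 longer quartiles, at -0.32, -0.33 and -0.42; the shortest quartile holds 2 KRAB members and 4 without KRAB.

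Other zinc finger families were counted by symbol, beside 30.5% higher and 29.9% lower over all tested genes. Of 37 Zbtb genes, whose proteins pair zinc fingers with a BTB domain, 12 rose (32.4%) and 8 fell (21.6%), with a median of 0.02, and of 13 Klf genes 5 rose (38.5%) and 4 fell (30.8%), with a median of 0.03. Of 4 Znf genes 3 rose and 1 fell (median 0.48). Of 15 Zc3h genes, CCCH proteins of RNA metabolism, 5 rose (33.3%) and 7 fell (46.7%), with a median of -0.19. Of 14 Zscan and Zkscan genes, which carry SCAN and often KRAB domains, 2 rose (14.3%) and 8 fell (57.1%), with a median of -0.26.

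On the TPM scale the whole distribution lay lower, with a median log2 fold change over all tested genes of -0.10, and the calls split 39.8% higher against 50.4% on counts. There, with limma on log2(TPM + 1), which understates the change of low genes, 10 KRAB members rose and 81 fell (background 24.4% higher and 36.9% lower), with a median of -0.40. Members without KRAB counted 31 higher (26.7%) and 41 lower (35.3%), with a median of -0.05, so their split followed the shift of all tested genes. Their median stood above that of all tested genes on both scales, and that of the KRAB members below it on both.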

How the data were processed

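Poly(A) RNA of rat mesenchymal stem cells was sequenced in 6 libraries, 3 SMNV and 3 Dox. Build mRatBN7.2 and the tools fastp, HISAT2 and HTSeq are listed in the submitters' processing notes. Whether counting used strand is not stated, and reads of a gene and of its antisense gene may be mixed. The authors deposited a table of estimated counts per gene, not normalized, some with decimals whose source is not given, and a table of TPM. Both carry Pfam terms, from which classes were taken, in place of a motif search in proteins.

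Counts were rounded, filtered with filterByExpr, scaled by TMM and fitted with edgeR 4.0.16 (glmQLFit, glmQLFTest; group only) over all 12614 tested genes in R 4.3.3, with Benjamini-Hochberg adjustment and a threshold of 0.05. SE is the absolute log2 fold change over the square root of F. The script was tested on simulated data. Alternatives were RLE and upper-quartile factors, no filter, DESeq2 1.42.0, voom and limma-trend (limma 3.58.1) on log2(TPM + 1) and log2(TPM + 0.1), the replicate number as block, each library left out, summed counts of 100 or 1000, and rows with whole counts. Related KRAB rows may share reads.

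Members and lists were chosen with earlier results of these data known. Genes named are the 10 largest changes in each direction among called members with mean CPM of at least 5 and no overlap, the 5 highest by TPM, the role lists, the 3 nearest the limit on each side, and, of the TRIM28 list, the 3 largest called changes in each direction with Trim28, Setdb1 and Cbx5. RefSeq tables gave promoters and gene order only. Some genes of the marker lists are not reported here. Depth of 18640909 to 21506967 counts limits genes of few counts most.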

Additional observations from a re-analysis of the deposited data

How the results depend on the processing

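Over the 6 fits that each left out a library, 126 to 150 members were called, 46 to 55 higher and 79 to 100 lower, with a median log2 fold change of -0.26 to -0.16. KRAB members counted 8 to 12 higher and 51 to 66 lower (median -0.36 to -0.30), the other members 38 to 43 higher and 28 to 34 lower (median 0.052 to 0.087), KRAB genes outside the Zfp symbols 38 to 53 lower, and the TRIM28 list 23 to 26 called. On log2(TPM + 1) and log2(TPM + 0.1) the medians were -0.28 and -0.35 over the members, -0.40 and -0.45 over the KRAB members and -0.05 and -0.053 over the others, and those of all tested genes -0.10 and -0.12. At a summed count of at least 1000, 6 KRAB members rose and the median of the others was -0.01. With whole-count rows only, where fewer rows are counted, 41 KRAB members fell, 28 others rose and their median was 0.026. Called in all 14 alternative fits were 39 of the 53 rising and 67 of the 101 falling members, and 41 of the 65 falling KRAB members. The replicate numbers did not pair the libraries (correlations of same-numbered deviations 0.008, -0.116 and 0.002), and with the replicate block 151 members were called, 52 higher and 99 lower, 64 KRAB members lower. In the Zfp764l1 to Zfp689 run 2 members rose without SMNV library 1, SMNV library 3 or Dox library 1. The cause of these shifts was not tested.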
